A study of Rattus norvegicus with 12 samples.

Results

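The SOCS genes and the gp130 cytokine pathway that they restrain were followed in rat cells washed from the lung airspaces after LPS, hypobaric hypoxia or both. Of 10 genes, 9 had a probe set that named them alone: the cytokines Il6 and Il10, the receptor chains Il6st (gp130) and Il10ra, the transcription factor Stat3, and the inhibitors Cish, Socs1, Socs2 and Socs3. Each gene was represented by its probe set of highest mean intensity among 16 such probe sets of the 31099 on the array, and Osmr had no probe set that named it alone.

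The cells came from the bronchoalveolar lavage fluid (BALF) of 8-week-old male Sprague-Dawley rats, and their total RNA was pooled by group and hybridised to 12 Affymetrix rat genome arrays, 3 pools for each of 4 groups. CTL rats received saline by tail vein and stayed in normoxia. LPS rats received 0.5 mg/kg of lipopolysaccharide by the same route. HPO rats spent 6 h in a decompression chamber at 405.35 mmHg, the pressure of 5000 m of altitude and the equivalent of 11.2% O2, and whether they also received an injection is not stated in the sources used here. COMB rats received LPS first and then entered the chamber. All rats were fasted without water during the experiment. The labels list 3 rats in most pools but 2 rats in 2 of the COMB pools, so adjusted p values measure the spread between pools and not between single rats.

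Cytokines of the gp130 family bind receptors that share the signal-transducing chain gp130, which activates JAK kinases and then the transcription factor STAT3. IL-10 reaches STAT3 through its own receptor, and in macrophages that signal is known to restrain inflammatory gene expression. The SOCS proteins and CIS, the product of Cish, are induced by STAT proteins and shut the receptors off again, SOCS3 at gp130, SOCS1 at the JAK kinases of interferon receptors, and CIS and SOCS2 mainly downstream of STAT5.

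Promoters of Cish and Socs1 are shown because both genes differed between COMB and other groups, and STAT proteins are known to bind DNA at the palindrome TTCNNNGAA. RefSeq promoters on build GRCr8 (250 bases before to 50 after the gene start) were held for 8 of the 10 genes. The motif reads the same on both strands, and the stricter form TTCCNGGAA is a part of it. TTCNNNGAA occurred in 8.87% of 33469 promoters and TTCCNGGAA in 1.27%. Cish held 4 matches to TTCNNNGAA, of which TTCCTGGAA and TTCCGGGAA also match the stricter form, and only 2 of all promoters searched held that many. Socs1 held 1 match, TTCAGGGAA, and the promoters of Socs3, Stat3, Il6, Il6st, Osmr and Il10ra held none of these letters in this window. In the sequences the capitals mark matches to TTCNNNGAA. Cish lies at chr8:116850719-116851018 on the plus strand and Socs1 at chr10:5389324-5389623 on the plus strand.
Cish: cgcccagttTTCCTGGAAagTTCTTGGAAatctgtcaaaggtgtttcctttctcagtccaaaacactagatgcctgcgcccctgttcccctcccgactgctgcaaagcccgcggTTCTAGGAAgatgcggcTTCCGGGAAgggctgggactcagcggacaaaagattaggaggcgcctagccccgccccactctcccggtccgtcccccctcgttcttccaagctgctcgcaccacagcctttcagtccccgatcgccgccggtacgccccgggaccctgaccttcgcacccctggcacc
Socs1: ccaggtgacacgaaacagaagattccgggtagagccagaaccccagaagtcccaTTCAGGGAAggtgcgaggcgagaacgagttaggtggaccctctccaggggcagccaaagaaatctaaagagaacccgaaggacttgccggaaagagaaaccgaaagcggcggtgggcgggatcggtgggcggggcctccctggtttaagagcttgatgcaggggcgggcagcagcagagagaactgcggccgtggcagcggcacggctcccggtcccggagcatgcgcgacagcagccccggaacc

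The deposited values are intensities on a linear scale with array medians between 32.7 and 35.6. A probe set was taken to be at background in an array when it lay at or below that array's 20th percentile, which fell between 10.1 and 11.3. Intensities of different probe sets are not levels of different genes on one scale, so each gene is compared with itself only. Alveolar macrophage markers, which include the mannose receptor Mrc1, were high in every group, their summed intensities running from 18486 to 19178 for CTL, 19672 to 21791 for LPS, 18706 to 19844 for HPO and 15916 to 18430 for COMB. The COMB pool of rats 2 and 3 stood apart from the other COMB pools, among others in its 11 T and NK cell markers. Their summed intensity was 1228 against 7406 in the pool of rats 10 and 11 and 5730 in the pool of rats 12, 13 and 14. That pool also differed in other cell types. It was the highest COMB pool for endothelial and fibroblast markers, at 1129 against 273 and 389. The same held for alveolar epithelial markers, at 4362 against 3060 and 2734. Among the CTL pools, that of rats 5, 6 and 7 was the highest for the T and NK cell markers, at 2669 against 596 and 1089. The comparisons of the tested genes with COMB, and the counts of the pathway lists, were therefore also computed with the pool of rats 2 and 3 left out. This alternative was extended to the pathway lists after seeing the data. For genes lowest in that pool among the COMB pools, calls gained by leaving it out follow in part from the choice of arrays. Such calls are no independent evidence of a rise.

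**Figure D1:**
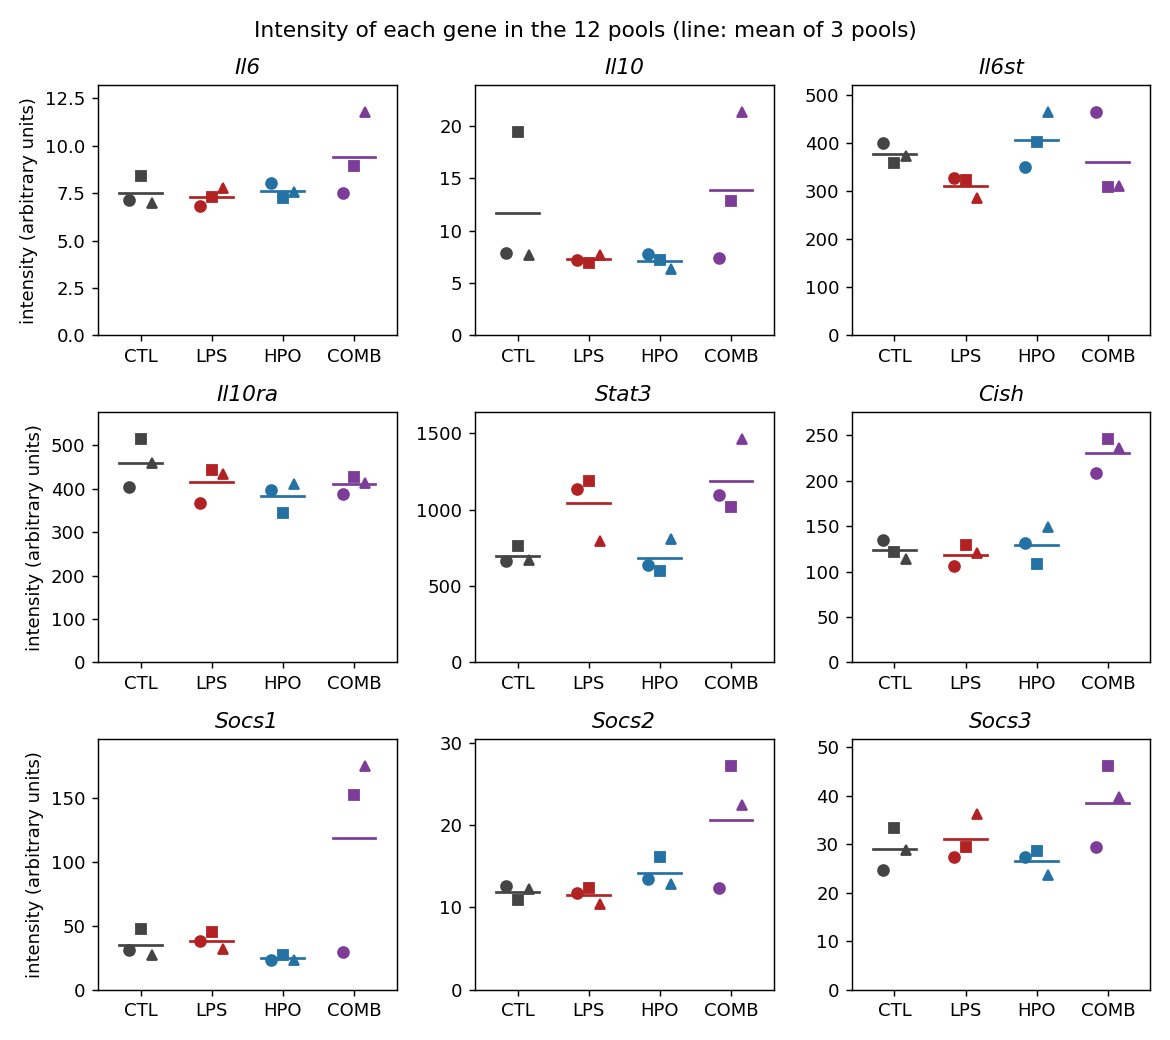
Intensity of 9 genes (vertical axes, arbitrary units, from 0) in the 12 pools of CTL, LPS, HPO and COMB rats, with circle, square and triangle for replicates 1, 2 and 3 of a group and a line at the mean. All 3 COMB pools of Cish lie between 208 and 246 and above the other 9 pools, while Socs1 is at 29.9 in one COMB pool and at 152 and 175 in the others.

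Of the 8 genes that were above background often enough to be tested, 3 rose in COMB against CTL (Cish, Stat3 and Socs2) and none fell, with 19.1% of all 25692 probe sets called in that comparison and 8.84% called higher. COMB against LPS had 2 of 8 higher (Cish and Socs2; 11.9% of all probe sets called, 6.64% higher), and COMB against HPO had 3 of 8 higher (Cish, Stat3 and Socs1; 15.6% called, 6.83% higher). Neither single exposure moved any of the 8 past the threshold in limma, with 1 gene at an unadjusted p under 0.05 in LPS against CTL (Stat3; 2.04% of all probe sets were called and 14.8% were under that p) and 1 in HPO against CTL (Il10ra; 0.035% called and 9.71% under that p). The median log2 change of the 8 genes was 0.53 in COMB against CTL, beside -0.04 over all probe sets tested. It was -0.05 in LPS and -0.08 in HPO against CTL, where the medians over all probe sets were -0.0045 and -0.0021. With the pool of rats 2 and 3 left out, 5 of the 8 genes were called against CTL (19.3% of all probe sets), 4 against LPS (12.9%) and 6 against HPO (16.7%). The counts against LPS and HPO include Il10, which was at background in every LPS and HPO array.

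**Figure D2:**
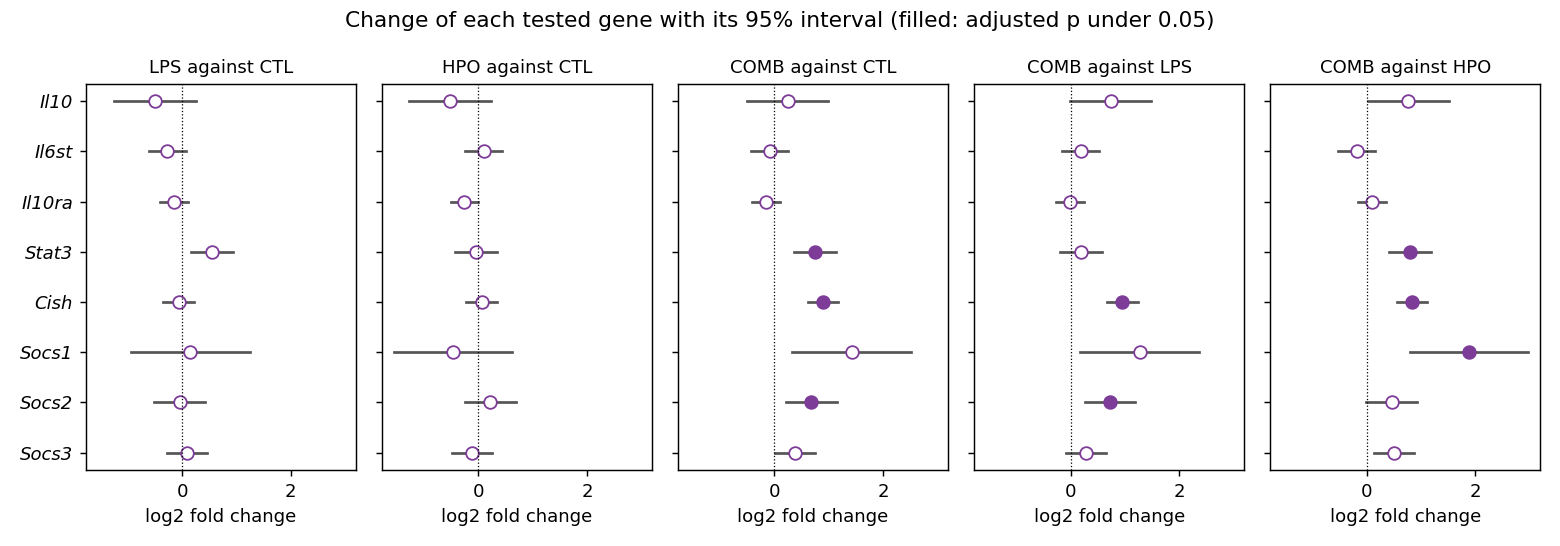
Log2 fold change (horizontal axes) of the 8 tested genes in 5 comparisons, with 95% intervals from limma and filled points for an adjusted p under 0.05. Filled points stand only in the 3 panels with COMB, and the interval of Socs1 is the widest in each panel.

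Il6, the prototype ligand of gp130, was at background in 11 of 12 arrays. Its intensities were 7.15, 8.42 and 6.98 for CTL, 6.82, 7.28 and 7.78 for LPS, 8.05, 7.24 and 7.58 for HPO, and 7.50, 8.93 and 11.8 for COMB. The single value above background was the COMB pool of rats 12, 13 and 14. Il6 did not enter the test, and a change of Il6 was not detectable at this signal.

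Of the other gp130 ligands, 5 were tested (Lif, Osm, Il11, Ctf1 and Cntf) and none was called in any comparison (limma; 1 at an unadjusted p under 0.05 in COMB against LPS and 1 in LPS against CTL), with a median log2 change of -0.10 in COMB against CTL. Osm, the ligand oncostatin M of macrophages and neutrophils, is named after its values were seen: it was at 311 in 1 CTL pool (rats 5, 6 and 7), while the other CTL pools had 75.2 and 87.7 and the remaining groups 65.6 to 152. That CTL pool was also the highest of its group for neutrophil markers, at a summed intensity of 2988 against 474 and 509, and the part of those cells in the Osm value was not tested.

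Il10, the anti-inflammatory cytokine, was at background in 9 of 12 arrays. CTL pools were at 7.87, 19.4 and 7.67, LPS pools at 7.20, 6.89 and 7.66, HPO pools at 7.79, 7.15 and 6.34, and COMB pools at 7.37, 12.9 and 21.4. The 3 arrays above background were 1 CTL pool (rats 5, 6 and 7) and 2 COMB pools. These are the 3 arrays with the highest summed T and NK cell markers, and also those with the highest summed markers of recruited monocytes. The part of any of these cells in the Il10 values was not tested. The log2 change was 0.24 in COMB against CTL (SE 0.35, adjusted p = 0.683), and the groups overlapped. Without the COMB pool of rats 2 and 3, Il10 passed the threshold against LPS (log2 change 1.09, adjusted p = 0.0413) and against HPO (1.13, adjusted p = 0.0305), but not against CTL (0.60, adjusted p = 0.231). Il10 entered the test only through the 3 arrays above background, 2 of them the COMB pools kept in this fit. All 3 LPS and all 3 HPO arrays were at background, and the pool left out was the only COMB array at background. These calls therefore follow in part from the choice of arrays and are no evidence of a rise. The difference is only bounded, at 1.46-fold or more over LPS and 1.49-fold or more over HPO with the background level in place of the dim values.

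The receptor chains did not move past the threshold. Il6st encodes gp130 itself, and its intensities were 400, 358 and 373 for CTL, 327, 322 and 285 for LPS, 351, 403 and 464 for HPO, and 465, 309 and 311 for COMB. All LPS pools lay below all CTL pools, as 26.5% of all probe sets did not overlap in that comparison, with a log2 change of -0.28 (95% interval -0.62 to 0.06, adjusted p = 0.471). The 3 other probe sets of Il6st gave -0.13, 0.24 and 0.27 in LPS against CTL. At the probe set with 0.24 all LPS pools lay above all CTL pools. In COMB against CTL the change at the probe set of highest mean was -0.09 (interval -0.43 to 0.25), and the 3 other probe sets gave 0.22, 0.40 and 0.07. No direction can be given for gp130 in either comparison. The COMB pool of rats 2 and 3 had the highest intensity of all 12 in 3 of the 4 probe sets, and without it the change was -0.28 (adjusted p = 0.152).

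Il10ra encodes the ligand-binding chain of the IL-10 receptor. It was at 404, 515 and 460 for CTL, 368, 443 and 433 for LPS, 397, 344 and 411 for HPO, and 389, 428 and 413 for COMB. All 4 groups overlapped, and the log2 changes against CTL were -0.16 in COMB (interval -0.41 to 0.09), -0.15 in LPS (interval -0.40 to 0.11) and -0.26 in HPO (interval -0.51 to -0.0039, adjusted p = 0.505). With the pool of rats 2 and 3 left out, the change in COMB against CTL was -0.12 (adjusted p = 0.603). A second, dimmer probe set of Il10ra gave -0.30 in COMB against CTL (adjusted p = 0.106) and -0.39 in COMB against LPS (adjusted p = 0.0588), without overlap in either.

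In the list of gp130 family receptors, 1 of 6 tested genes fell in COMB against CTL (10.2% of all probe sets were called lower) and none rose. That gene was Il6r, the receptor chain that binds interleukin-6, which fell by 0.59 on the log2 scale (SE 0.14, adjusted p = 0.0131). CTL pools of Il6r were at 502, 519 and 486 and COMB pools at 281, 320 and 416, without overlap, and without the pool of rats 2 and 3 the log2 change was -0.46 (adjusted p = 0.0401). In that fit 1 of the 6 genes was also called higher, Il27ra, a receptor chain for interleukin-27 named after its values were seen. Its log2 change was 1.01 (adjusted p = 0.000296), against 0.65 (adjusted p = 0.0698) with all pools. COMB pools of Il27ra were at 10.9, 21.5 and 26.4, and CTL pools at 11.4, 11.7 and 10.9, close to background. The pool left out was the lowest of COMB, so this call follows in part from the choice of arrays. None of the 6 tested genes of the IL-10 family and its receptors was called in any comparison (limma; at most 2 at an unadjusted p under 0.05, in COMB against HPO).

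Stat3 encodes the factor that carries the gp130 and IL-10 signals to the nucleus, and it rose in COMB against CTL. Its intensities were 666, 762 and 669 for CTL, 1138, 1188 and 798 for LPS, 637, 601 and 805 for HPO, and 1095, 1015 and 1463 for COMB. The 3 COMB pools were above all CTL pools (36.6% of all probe sets did not overlap there) and all HPO pools (27.7%), and the LPS pools were above all CTL pools but overlapped with HPO and with COMB.

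In means, the order of Stat3 was HPO (681 ± 109, SD, n = 3), CTL (699 ± 54.5), LPS (1041 ± 213) and COMB (1191 ± 239). The log2 change was 0.75 in COMB against CTL (1.69-fold, SE 0.18, limma, Benjamini-Hochberg adjusted p = 0.0116) and 0.80 in COMB against HPO (adjusted p = 0.0106). LPS against CTL gave 0.56 (interval 0.17 to 0.94), which did not pass over all probe sets (adjusted p = 0.149). HPO and CTL did not differ beyond their spread (-0.05, interval -0.43 to 0.34), nor did COMB and LPS (0.20, interval -0.19 to 0.59).

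The second probe set of Stat3 had the same order of groups, with changes of 0.94 in COMB against CTL (adjusted p = 0.00568), 0.58 in LPS against CTL (adjusted p = 0.175) and -0.05 in HPO against CTL. Without the COMB pool of rats 2 and 3 the change of Stat3 in COMB against CTL was 0.80 (adjusted p = 0.0156). The sum of the LPS and the HPO change of Stat3 was 0.51, and the interaction, which is the COMB change beyond that sum, was 0.24 (SE 0.25, adjusted p = 0.754).

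Among JAK and STAT genes, 3 of 10 tested rose in COMB against CTL (Jak3, Stat2 and Stat3) and 2 fell (Stat5a and Jak2). Over all probe sets tested, 8.84% were called higher and 10.2% lower there. Stat2, a transcription factor of type I interferon signaling, was already called in LPS against CTL (log2 change 1.14, adjusted p = 0.00462) and was 0.88 in COMB against CTL (adjusted p = 0.00181). Its pools ran from 362 to 428 (CTL), 721 to 957 (LPS), 369 to 447 (HPO) and 615 to 884 (COMB), so that LPS and COMB overlapped. Jak2, the kinase used by gp130 and by STAT5-activating receptors, fell by 0.86 in LPS (adjusted p = 0.0288) and by 0.64 in COMB against CTL (adjusted p = 0.0207), a call that was lost without the pool of rats 2 and 3 (-0.56, adjusted p = 0.0583). Stat5a, one of both STAT5 genes, fell by 0.59 in COMB against CTL (adjusted p = 0.00672).

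Jak3, the kinase of the common gamma chain receptors of lymphocytes, rose by 1.39 in COMB against CTL (adjusted p = 0.00409). Its CTL pools were at 41.6, 75.2 and 46.0, its LPS pools at 86.1, 92.5 and 78.7, and its HPO pools at 49.8, 50.4 and 50.7. COMB pools were at 83.1, 173 and 187, the lowest COMB value being that of the pool low in T and NK cell markers. All LPS pools were above all CTL pools. COMB against LPS was not called with all pools (0.70, adjusted p = 0.122), but was without the pool of rats 2 and 3 (1.06, adjusted p = 0.00495). That pool was the lowest of COMB, so the call follows in part from leaving it out. The part of lymphocytes in the Jak3 result was not tested.

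Cish had the lowest adjusted p of the 8 tested genes in COMB against CTL, LPS and HPO. It encodes CIS, an SH2 protein that STAT5 induces and that blocks cytokine receptors. Its intensities were 135, 122 and 114 for CTL, 106, 129 and 121 for LPS, 132, 109 and 149 for HPO, and 208, 246 and 236 for COMB.

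Every COMB pool of Cish was above all 9 other pools (34.2% of all probe sets did not overlap in COMB against LPS), and the 3 other groups overlapped with each other. In order of their means, LPS (118 ± 11.7, SD, n = 3), CTL (124 ± 10.7) and HPO (130 ± 20.3) did not differ beyond their spread, and COMB (230 ± 19.6) stood above them. The log2 change of Cish was 0.89 in COMB against CTL (1.86-fold, SE 0.13, limma, Benjamini-Hochberg adjusted p = 0.000654), 0.96 in COMB against LPS (adjusted p = 0.00128) and 0.83 in COMB against HPO (adjusted p = 0.00147). With the pool of rats 2 and 3 left out, these changes were 0.96 (adjusted p = 0.000771), 1.03 (adjusted p = 0.00124) and 0.90 (adjusted p = 0.00154). LPS alone gave -0.06 (interval -0.34 to 0.22) and HPO alone 0.06 (interval -0.22 to 0.34).

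The single changes of Cish added up to -0.00023, and the interaction was 0.89 (SE 0.18, interval 0.49 to 1.29). Its adjusted p was 0.0783 in limma, where 0.136% of all probe sets passed, and none of the 8 genes did (3 at an unadjusted p under 0.05, beside 12.3% of all probe sets). Without the COMB pool of rats 2 and 3, in which 2.5% of all probe sets passed, the interaction of Cish was 0.96 (adjusted p = 0.0256).

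The dimmer probe set of Cish was at 21.9, 19.3 and 15.6 for CTL, 19.4, 21.5 and 21.8 for LPS, 20.5, 19.2 and 22.5 for HPO, and 22.1, 29.9 and 26.6 for COMB. It gave 0.45 in COMB against CTL (adjusted p = 0.0366), without overlap, and 0.31 and 0.32 against LPS and HPO (adjusted p = 0.166 and 0.146). The size of the Cish change therefore depends on the probe set. The lowest COMB value of Cish at its brighter probe set, 208, came from the pool of rats 2 and 3 that was low in T and NK cell markers.

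Markers of several other cell types were also higher in COMB. Beside the counts that follow, 8.84% of all probe sets were called higher and 10.2% lower in COMB against CTL. All 12 airway epithelial markers were called against CTL, and their summed intensity ran from 6129 to 9522 (CTL), 13495 to 14614 (LPS), 13946 to 15917 (HPO) and 19172 to 26179 (COMB). These sums were above those of every CTL pool in LPS and HPO, and above those of all other pools in COMB. Neutrophil markers had sums of 474 to 2988 for CTL, 1219 to 1959 for LPS, 276 to 448 for HPO and 2917 to 6800 for COMB, and of 7 markers 3 were called higher and 1 lower in COMB against CTL. Of 9 alveolar epithelial markers 5 were called higher, with sums of 1316 to 2283 in CTL and 2734 to 4362 in COMB, and of 5 tested markers of recruited monocytes 2 were called higher and 1 lower, with sums of 1107 to 2589 and 2222 to 3752. The part of these cells in the results for Cish and Stat3 was not tested, and in bulk RNA fewer cells of a type and less RNA per cell cannot be told apart.

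Socs1, the inhibitor of JAK kinases at interferon receptors, split the COMB pools. Its intensities were 30.8, 47.3 and 27.3 for CTL, 37.9, 45.3 and 32.0 for LPS, 23.5, 27.3 and 22.9 for HPO, and 29.9, 152 and 175 for COMB. The COMB pool of rats 2 and 3 lay within the range of CTL and the other COMB pools lay above every pool of the other groups.

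Over all pools the log2 change of Socs1 was 1.42 in COMB against CTL (SE 0.50, interval 0.33 to 2.51), which did not pass (adjusted p = 0.0685), and 1.88 in COMB against HPO (3.69-fold, adjusted p = 0.0244), which did. The call against HPO was lost when any HPO pool or any of the other COMB pools was left out (5 fits, log2 change 1.43 to 1.96, adjusted p = 0.0562 to 0.0909), with a trended and robust fit (adjusted p = 0.0586) and in a fit of only both groups (adjusted p = 0.0974). Without the COMB pool of rats 2 and 3 the log2 change was 2.22 against CTL (4.67-fold, adjusted p = 6.16e-05), 2.07 against LPS (adjusted p = 0.000354) and 2.69 against HPO (adjusted p = 3.08e-05). The interaction was then 2.53 (adjusted p = 0.0029). The pool left out was the COMB pool with low Socs1, so these calls follow in part from the choice of arrays. They are no independent evidence of a rise. A second probe set of Socs1 did not show the split: it was at 28.3, 32.0 and 38.3 in COMB and between 22.1 and 36.8 in the other groups, with a log2 change of -0.0085 in COMB against CTL (interval -0.37 to 0.35).

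T and NK cell markers had the same split among the COMB pools as Socs1. The pools with summed marker intensities of 7406 and 5730 were the 2 with Socs1 at 152 and 175, the COMB pool with low Socs1 had 1228, and the CTL pool highest in Socs1 (47.3) had 2669. Outside these pools the order differed, since HPO had marker sums of 867 to 1065 with Socs1 at 22.9 to 27.3 and LPS had sums of 576 to 983 with Socs1 at 32.0 to 45.3. The 3 B cell markers were split too, at sums of 61.1, 437 and 331 in COMB and 52.0 to 226 elsewhere, and none was called in COMB against CTL (limma; 1 at an unadjusted p under 0.05). Of the 11 T and NK cell markers, 2 were called higher in COMB against CTL (8.84% of all probe sets were called higher), 8 in COMB against LPS (6.64%) and 4 in COMB against HPO (6.83%). None of the 11 was at background in all arrays. Granzyme B (Gzmb) had mean intensities of 315 for CTL, 52.8 for LPS, 67.7 for HPO and 1126 for COMB, and Lck, the kinase of the T cell receptor, 298, 244, 247 and 605. The part of lymphocytes in the Socs1 result was not tested.

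**Figure D3:**
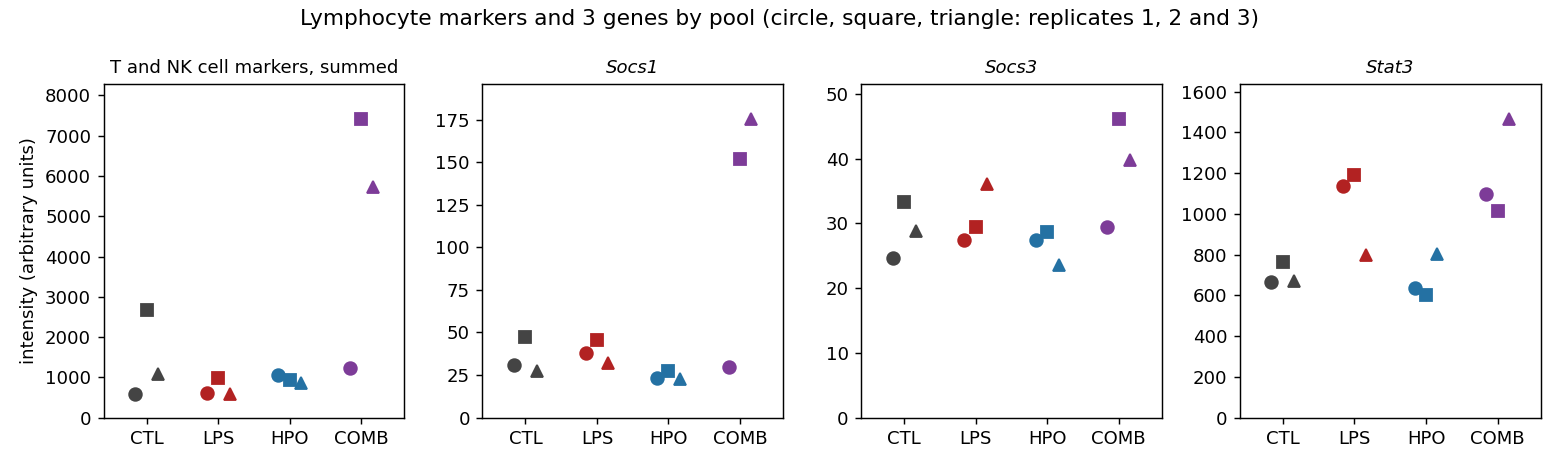
Summed intensity of 11 T and NK cell markers and intensities of Socs1, Socs3 and Stat3 (vertical axes from 0, arbitrary units) in the 12 pools, with circle, square and triangle for replicates 1, 2 and 3. The COMB circle, the pool of rats 2 and 3, is low for the markers (1228) and for Socs1 (29.9), while for Stat3 it lies between the other COMB pools at 1095.

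Upstream of Socs1, the interferon list had 2 of 9 tested genes higher in COMB against CTL (Irf1 and Stat2) and 1 lower (Ifnar1). Of all probe sets tested, 8.84% were called higher and 10.2% lower there. Irf1, an interferon-induced transcription factor, was at 255, 826 and 288 for CTL, 869, 977 and 612 for LPS, 237, 264 and 299 for HPO, and 604, 1366 and 1478 for COMB. Its log2 change was 1.44 in COMB against CTL (adjusted p = 0.0314), and the groups overlapped through the CTL pool of rats 5, 6 and 7. Ifnar1, a chain of the type I interferon receptor, fell by 0.74 in COMB (adjusted p = 0.000316) and by 0.47 in LPS against CTL (adjusted p = 0.0296).

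Ifng, the interferon of T and NK cells, was at 6.80, 42.8 and 94.0 in the COMB pools and between 5.62 and 12.0 elsewhere, the low COMB value being again that of rats 2 and 3. Ifng was at background in 9 of 12 arrays, all LPS arrays among them, so COMB over LPS is only bounded, at 2.65-fold or more (adjusted p = 0.0479 in limma). It entered the test only through the arrays above background, the COMB pools at 42.8 and 94.0 and the CTL pool at 12.0. The call against LPS therefore follows in part from the filter and is no evidence of a rise. COMB against CTL did not pass (adjusted p = 0.064). Stat4, named after its values were seen, had the same split at 23.7, 129 and 75.2 in COMB against 18.2 to 30.3 elsewhere, and with Batf2 and Tnfrsf4 it was one of the 3 genes nearest to Socs1 over the 12 arrays (root mean square difference of centred log2 values 0.34 for Stat4, 0.23 for Batf2 and 0.29 for Tnfrsf4, beside a median of 0.95 over all genes).

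Socs2, which restrains growth hormone and other STAT5 signals, was close to background, with 2 of 12 arrays at or below it. Its intensities were 12.6, 10.9 and 12.2 for CTL, 11.8, 12.4 and 10.4 for LPS, 13.5, 16.1 and 12.8 for HPO, and 12.4, 27.2 and 22.5 for COMB. The COMB pool of rats 2 and 3 lay within CTL, and the other COMB pools lay above every other pool. Neither HPO against CTL (log2 change 0.22, interval -0.24 to 0.69, adjusted p = 0.845) nor COMB against HPO (0.46, adjusted p = 0.184) was called.

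The log2 change of Socs2 was 0.68 in COMB against CTL (1.60-fold, SE 0.21, adjusted p = 0.0439) and 0.73 in COMB against LPS (adjusted p = 0.0464). Both calls were lost when arrays were centred on their median (adjusted p = 0.068 and 0.0702). With the pool of rats 2 and 3 left out, the changes were 0.99 (adjusted p = 0.000384) and 1.04 (adjusted p = 0.000763). That pool was the lowest of COMB, so these values follow in part from the choice of arrays. Leaving out any of the other COMB pools or any CTL pool raised the adjusted p in COMB against CTL to between 0.087 and 0.152.

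Socs3, the inhibitor that binds gp130 and that STAT3 induces, was not called in any comparison over all pools. Its intensities were 24.7, 33.3 and 28.8 for CTL, 27.4, 29.4 and 36.1 for LPS, 27.4, 28.7 and 23.5 for HPO, and 29.4, 46.1 and 39.7 for COMB. COMB lay above HPO without overlap, and it overlapped with CTL and with LPS through the pool of rats 2 and 3.

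The log2 change of Socs3 was 0.38 in COMB against CTL (interval 0.02 to 0.75, adjusted p = 0.139) and 0.50 in COMB against HPO (interval 0.13 to 0.86, adjusted p = 0.0671). Without that pool Socs3 passed against CTL (0.56, adjusted p = 0.025) and against HPO (0.67, adjusted p = 0.0116), but not against LPS (0.46, adjusted p = 0.0732). The pool left out was the lowest of COMB, so these calls follow in part from the choice of arrays. In LPS against CTL the log2 change of Socs3 was 0.10 (interval -0.27 to 0.46).

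Of 16 tested genes in the list of SOCS proteins and other inhibitors, 3 rose in COMB against CTL (Ptpn1, Cish and Socs2), 1 fell (Socs5) and 12 were not called. Beside that, 8.84% of all probe sets were called higher and 10.2% lower. Ptpn1, the phosphatase PTP1B that acts on JAK2 and TYK2, was at 94.4, 114 and 88.7 for CTL, 118, 110 and 85.6 for LPS, 84.3, 85.0 and 107 for HPO, and 187, 262 and 290 for COMB. Like Cish, it was above all other pools in every COMB pool, with a log2 change of 1.29 against CTL (SE 0.18, adjusted p = 0.000498) and 1.22 against LPS (adjusted p = 0.00189).

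Socs5 moved the other way, from 1321, 1405 and 1535 in CTL and 1264, 1258 and 1308 in LPS to 785, 867 and 759 in COMB. It fell by 0.82 on the log2 scale in COMB against CTL (SE 0.09, adjusted p = 0.000108) and by 0.67 in COMB against LPS (adjusted p = 0.00115). Ptpn2, the phosphatase TC-PTP, rose in COMB against LPS (0.49, adjusted p = 0.0197), where it was at 455, 478 and 415 in LPS and 598, 655 and 634 in COMB, but not against CTL (0.31, adjusted p = 0.0818). With the pool of rats 2 and 3 left out, this list had 5 higher and 1 lower in COMB against CTL (19.3% of all probe sets were called).

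The genes listed as induced through STAT3 had 12 of 25 tested members higher in COMB against CTL (8.84% of all probe sets), 1 lower (10.2%) and 12 not called, with a median log2 change of 0.61. LPS against CTL called 3 of the listed genes higher (Lcn2, Hp and Timp1, beside 0.868% of all probe sets). HPO against CTL called none, and COMB against LPS called 7 higher (6.64% of all probe sets). The list holds many genes that NF-kB also induces, and it was drawn up with earlier results of these data known, so its counts are no independent evidence of STAT3 activity.

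Lcn2, the siderophore-binding protein lipocalin 2, was at 18.5, 31.9 and 23.0 for CTL, 1091, 945 and 888 for LPS, 20.5, 40.5 and 46.0 for HPO, and 4960, 4547 and 3717 for COMB. The groups CTL and HPO overlapped at the bottom, LPS lay apart in the middle and COMB at the top. The log2 change was 7.46 in COMB against CTL (adjusted p = 2.39e-08) and 2.17 in COMB against LPS (adjusted p = 0.000892).

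Haptoglobin (Hp) and Lbp, acute phase proteins of the list, had the same order of group means as Lcn2. Hp rose by 3.98 in COMB against CTL (adjusted p = 3.14e-06) and by 1.30 in COMB against LPS (adjusted p = 0.00622), and Lbp, the LPS-binding protein, by 2.91 and 1.98 (adjusted p = 2.75e-05 and 0.000877). Bcl3, an NF-kB co-regulator, rose by 2.42 and 1.93 (adjusted p = 0.00428 and 0.0234), with COMB pools at 65.6, 206 and 173 and CTL pools at 14.6, 57.0 and 16.4. Cebpb, a factor of the acute phase response, fell by 0.30 in COMB against CTL (adjusted p = 0.0284), which was lost without the pool of rats 2 and 3 (-0.30, adjusted p = 0.0578). Airway epithelium is a known source of Lcn2 and Lbp, and the part of the epithelial and neutrophil markers given above in these results was not tested.

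**Figure D4:**
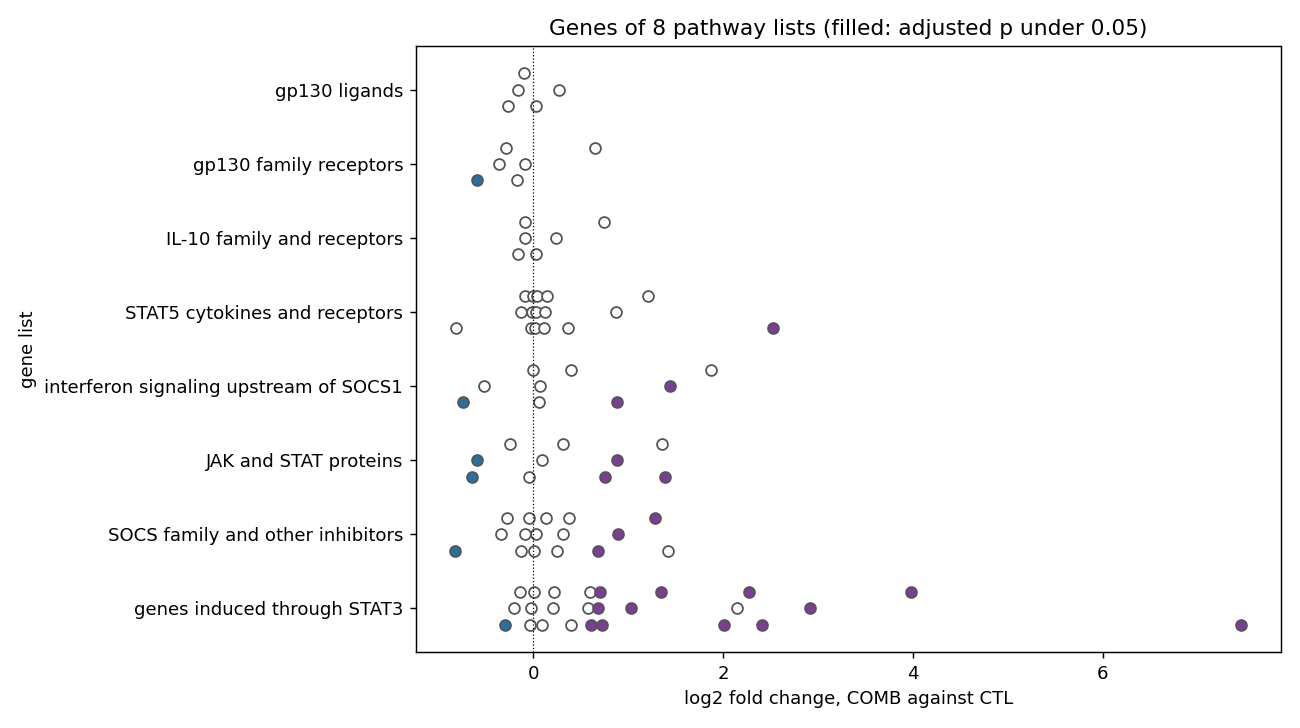
Log2 fold change in COMB against CTL (horizontal axis) of the tested genes of 8 lists (vertical axis; points of a list are spread in height only to be seen), filled where the adjusted p was under 0.05. Filled points to the right are most frequent among genes induced through STAT3 (12 of 25, up to 7.46 for Lcn2), while no gp130 ligand and no gene of the IL-10 family is filled.

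Cytokines and receptors that signal through STAT5, the inducer of Cish, had 1 of 16 tested genes higher in COMB against CTL (8.84% of all probe sets were called higher). It was Csf3, the granulocyte colony-stimulating factor, at 13.3, 18.9 and 20.7 in CTL, 23.6, 19.3 and 21.1 in LPS, 17.2, 15.4 and 15.0 in HPO, and 69.4, 131 and 127 in COMB. All COMB pools were above all others, with a log2 change of 2.53 against CTL (adjusted p = 3.57e-05) and 2.25 against LPS (adjusted p = 0.000307). Il2rb, a receptor chain for interleukins 2 and 15, rose in COMB against LPS (2.14, adjusted p = 0.0373), with COMB pools at 37.6, 199 and 190, again lowest in the pool low in T and NK cell markers.

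Over all 8 lists, 92 different genes were tested, of which 20 rose and 6 fell in COMB against CTL (28.3%, beside 19.1% of all probe sets). In LPS against CTL 4 rose and 2 fell (0.868% of all probe sets were called higher and 1.18% lower). None was called in HPO against CTL (limma, with 8 at an unadjusted p under 0.05, beside 9.71% of all probe sets). In COMB against LPS 14 rose and 1 fell (6.64% called higher and 5.27% lower). With the pool of rats 2 and 3 left out, 27 rose and 5 fell in COMB against CTL (19.3% of all probe sets were called). Of the 26 genes called with all pools, 24 were called again, the others being Jak2 and Cebpb. Both fits share the remaining arrays, so the repeated calls are no independent evidence.

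By their course over the 12 arrays, the genes nearest to Cish were Mif, Rab25 and H1f10 (root mean square differences of centred log2 values of 0.13, 0.14 and 0.15, beside a median of 0.46 over all genes). Mif had mean intensities of 392 (CTL), 415 (LPS), 449 (HPO) and 704 (COMB). Nearest to Stat3 were Larp1, Sh3pxd2b and Slc7a1 (0.12, 0.14 and 0.14, beside 0.45), and Larp1 had means of 927, 1396, 874 and 1502 in the same order of groups. Nearest to Socs2 were Lss, Napsa and Gca (0.17, 0.17 and 0.18, beside 0.43).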

How the data were processed

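Total RNA of pooled BALF cells was labelled with biotin and hybridised to Affymetrix Rat Genome 230 2.0 arrays. Per probe set and pool, the authors deposited a linear intensity, read from cell intensity files of the Affymetrix Command Console; the normalization method and scan batches are not given in the sources used here. Groups came from the sample labels, and all 12 columns were used. Gene names came from the platform annotation, updated by Entrez number through RefSeq (20764 of 20832 probe sets that name 1 gene).

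Intensities were tested as log2(value + 1), the pseudocount being 1, so fold changes of dim probe sets are understated. Probe sets were kept when they exceeded the array's 20th percentile on 3 or more arrays, which left 25692 after removal of 57 controls. limma 3.58.1 in R 4.3.3 (tables read with the data.table package, version 1.17.8) fitted 4 group means on all arrays (8 residual and 3.94 prior degrees of freedom), with Benjamini-Hochberg adjustment over all probe sets and a threshold of 0.05; adjusted p values are from this fit unless another is named, and intervals are 95% intervals. All 10 genes were to be named in every comparison, with the genes called in COMB against CTL or LPS from each list (at most 4 per direction), the 3 nearest genes of each called member and 2 markers per cell type. The 10 genes and all lists were chosen with earlier results of these data known. Motifs were searched with Python 3 and pandas. The fit was tested on simulated data. Alternatives covered normalization, pseudocount, filter, weights, choice of probe set, a t-test, a replicate block and each pool left out. The number of arrays limits the precision.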

Additional observations from a re-analysis of the deposited data

Results flagged for a closer look

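Csf3 differed in its change between hypoxic and normoxic rats: with LPS (COMB against LPS) it was larger than without LPS (HPO against CTL), with an interaction of 2.38 on the log2 scale (limma, adjusted p = 0.0206). COMB was above LPS in all pools of Csf3 (69.4, 131 and 127 against 23.6, 19.3 and 21.1), while HPO (17.2, 15.4 and 15.0) overlapped with CTL (13.3, 18.9 and 20.7).

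Icam1, the leukocyte adhesion molecule in the list of genes induced through STAT3, had pools that lay on opposite sides in both comparisons of hypoxic with normoxic rats and is given for that pattern: every HPO pool (374, 312 and 352) was below every CTL pool (421, 654 and 399) and every COMB pool (1049, 1156 and 1488) above every LPS pool (931, 828 and 668). In COMB against LPS 34.2% of all probe sets did not overlap, and the share in HPO against CTL is not given here. The change of Icam1 in COMB against LPS did not pass (0.60, limma, adjusted p = 0.0675). HPO against CTL was called for 0 of the 25 tested genes of the list of Icam1 (limma, with 4 at an unadjusted p under 0.05). The interaction of Icam1 was 1.08 on the log2 scale and did not pass (limma, adjusted p = 0.141).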

How the results depend on the processing

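Cish was called in COMB against CTL under every alternative run, with log2 changes of 0.67 to 1.00, and kept the side of its threshold against LPS and HPO except in the adjusted t-test. Calls of Socs2 and Socs1 were the least stable. In COMB against CTL, 5 of the 8 genes were called with array weights and 1 with the adjusted t-test. In COMB against LPS, 1 gene was called with median centring, a pseudocount of 16, no filter, a filter at the array median (which left Socs2 untested), a fit of only both groups or the unadjusted t-test, and 0 with the adjusted t-test. In COMB against HPO the number was 5 with array weights and 0 with the adjusted t-test, in LPS against CTL 1 with array weights and 2 with the unadjusted t-test, in HPO against CTL 0 with the adjusted or the unadjusted t-test, and in the interaction 3 with array weights. Leaving out each pool in turn gave 2 to 5 genes in COMB against CTL, 1 to 4 in COMB against LPS, 2 to 6 in COMB against HPO and 0 to 3 in the interaction, the highest number each time without the COMB pool of rats 2 and 3. The causes were not tested.

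Directions that changed sign belonged to small changes. When a gene's probe sets were averaged, Il6st was 0.15 in COMB against CTL, 0.027 in LPS against CTL and 0.060 in COMB against HPO, Cish 0.041 in LPS against CTL, and Il10ra -0.060 in COMB against HPO and -0.030 in the interaction. Array weights gave Il6st -0.061 in HPO against CTL and Il10ra 0.053 in COMB against LPS, and quantile normalization gave Cish 0.0028 in LPS against CTL. Leaving out each pool, Il6st ranged from -0.28 to 0.013 in COMB against CTL, -0.0020 to 0.20 in HPO against CTL, -0.0049 to 0.29 in COMB against LPS and -0.10 to 0.19 in the interaction. Il10 ranged from -0.11 to 0.65 in COMB against CTL and Il10ra from -0.10 to 0.037 in COMB against LPS. In LPS against CTL, Socs1 ranged from -0.0046 to 0.38, Socs2 from -0.10 to 0.016, Socs3 from -0.018 to 0.20 and Cish from -0.13 to 0.016. In HPO against CTL, Cish ranged from -0.043 to 0.18 and Stat3 from -0.17 to 0.038.

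Over all probe sets, the number called in COMB against CTL was 4895, against 3003 with 1 probe set per gene and 544 with the adjusted t-test. For LPS against CTL it was 525, against 3702 with array weights, 1147 in a fit of only both groups and 1 with the adjusted t-test. For COMB against HPO it was 4004, against 6774 with array weights and 17 with the adjusted t-test, for COMB against LPS 3060, against 4635 and 14, for HPO against CTL 9, against 3576 and 0, and for the interaction 35, against 2116 with array weights. LPS and CTL pools that share rat numbers did not deviate together (correlations of 0.039, -0.0076 and -0.0016), and with the replicate block 0 genes and 736 probe sets were called in LPS against CTL. Signal limits Il6, Il10 and Socs2, which lay at or near background.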
